A study of Mus musculus with 12 samples.

Results

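The cytosolic ribosomal protein genes were followed in M. gastrocnemius of mice fed a diet high or adequate in phosphorus. Members were the transcripts whose gene symbol is Rpl or Rps with a number, optionally followed by a, x or 1, together with Rplp0, Rplp1, Rplp2 and Rpsa and the paralogs Rpl3l, Rpl22l1, Rpl7l1, Rps27l and Rpl39l. A total of 84 rows of the array matched, which gave 81 genes among 22206 transcripts after the brightest row of Rpl29, Rpl31 and Rps26 was taken. They comprised 46 genes of the large subunit, 30 of the small subunit and the 5 paralogs. Male C57BL/6J mice, 6.5 months of age, received the P1.2 diet (1.2% phosphorus) or the P0.3 diet (0.3% phosphorus) for 6 weeks. Potassium dihydrogen phosphate was the added source of phosphorus, and casein supplied a further part in both diets. The P0.3 diet also held potassium bicarbonate, which balanced its potassium, and a little more cornstarch, so the diets differed in bicarbonate as well as in phosphorus. Of the 12 mice per diet, 6 were hybridised, each on its own Clariom S array from a small piece of whole muscle. The labels carry sample numbers from 1 to 12, with even numbers for the P1.2 group and odd numbers for the P0.3 group, and arrays are named by them here.

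The cytosolic ribosome translates nuclear mRNAs, and its large and small subunits are built from ribosomal RNA and about as many different ribosomal proteins as there are core members here. These mRNAs are among the most abundant of any cell. In vertebrates they start with a C and a run of pyrimidines, the 5′ terminal oligopyrimidine (TOP) tract, through which the kinase mTORC1 and the RNA-binding protein LARP1 set their translation. In skeletal muscle the paralog RPL3L takes the place of RPL3 in part of the ribosomes.

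All values are log2 signals as the authors' GCCN-SST-RMA algorithm gave them, so a difference of 1 is a doubling. Of the 81 genes, 80 had a mean signal above 6.11, a level that 95% of the 1451 transcripts for olfactory or vomeronasal receptors, which muscle should lack, did not reach, and the means ran from 4.67 for Rpl39l to 17.58 for Rps23. No member reached 19.93, the highest signal of any transcript on these arrays. That value is not a known ceiling, so compression of bright signals was not tested. The array sets 53 of the 81 in its class of multiple or complex loci, and 321 mouse genes in the RefSeq table carry the symbol of a ribosomal protein pseudogene, so signal from near-identical copies cannot be told apart from that of the gene itself. The rows of Rpl29 are annotated to different chromosomes, and so are those of Rpl31 and of Rps26. The Rpl29 row used is the one on chromosome 1, while the other lies on chromosome 9. The 10 markers of skeletal muscle fibres averaged 18.85 in the P1.2 group and 18.72 in the P0.3 group. Since whole tissue was used, fewer cells of a type and less RNA per cell cannot be told apart.

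Start sites are shown for some of the members described below, since the TOP tract is what these mRNAs are known to share; they were picked with and without a tract, and their mix does not stand for the family. RefSeq promoters (build GRCm38.p6) were found for 61 of the 81 genes. A C followed by at least 4 further pyrimidines (C or T), read on the gene's strand from the first base of a RefSeq transcript, was present in 12 of the 61 (19.7%), namely Rpl14, Rpl15, Rpl28, Rpl35, Rpl35a, Rpl38, Rplp2, Rps10, Rps15a, Rps18, Rps21 and Rps6. The share among all 27025 genes of the table was 3.01%. Below, 25 bases before and 25 bases from the annotated start are given in the direction of the gene, with the tract in capitals.
Rps6: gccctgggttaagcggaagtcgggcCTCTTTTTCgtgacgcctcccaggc
Rpl28: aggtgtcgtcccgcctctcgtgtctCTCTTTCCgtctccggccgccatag
Rplp2: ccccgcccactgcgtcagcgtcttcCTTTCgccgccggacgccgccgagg
Rpl15: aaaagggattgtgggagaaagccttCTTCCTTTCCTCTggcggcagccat
Rpsa: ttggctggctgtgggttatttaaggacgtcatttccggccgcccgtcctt
Rpl24: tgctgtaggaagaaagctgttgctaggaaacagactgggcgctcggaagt
Rpl22 (upstream start): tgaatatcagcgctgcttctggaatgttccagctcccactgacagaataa
Rpl22 (downstream start): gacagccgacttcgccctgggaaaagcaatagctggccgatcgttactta
Rpl3l (upstream start): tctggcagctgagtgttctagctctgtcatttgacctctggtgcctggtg
Rpl3l (downstream start): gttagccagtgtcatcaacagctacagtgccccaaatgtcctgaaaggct
Rpl22l1: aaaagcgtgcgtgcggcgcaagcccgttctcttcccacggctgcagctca
They lie at chr4:86857343-86857392 on the minus strand (Rps6), chr7:4792940-4792989 on the plus strand (Rpl28), chr7:141447626-141447675 on the plus strand (Rplp2), chr14:18270962-18271011 on the minus strand (Rpl15), chr9:120127741-120127790 on the plus strand (Rpsa), chr16:55966250-55966299 on the plus strand (Rpl24), chr4:152324411-152324460 and chr4:152325701-152325750 on the plus strand (Rpl22), chr17:24727801-24727850 and chr17:24732660-24732709 on the plus strand (Rpl3l) and chr3:28805483-28805532 on the plus strand (Rpl22l1). Rpsa, Rpl24, Rpl22, Rpl3l and Rpl22l1 have no capitals because no such tract begins at the annotated base, which says nothing of the start used in muscle. In the 300 bases around the start, on either strand, the letters CCGGAAG of an ETS-type motif stood in 26 of the 61 genes (42.6%, against 9.93% of all genes), AAGATGGC of a YY1-type motif in 5 (8.20%, against 3.19%) and GGGCGG of an SP1-type motif in 38 (62.3%, against 38.2%). These are letter matches, not sites shown to be bound.

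The comparison of the diets asks whether high phosphorus changed these mRNAs. The differences were small, and nearly all ran in one direction: the log2 difference P1.2 minus P0.3 was above 0 for 76 of the 81 genes, where 48% of all transcripts were above 0. Its median was 0.12, against -0.01 over all transcripts and 0.02 over the transcripts above the median signal. With quantile normalization the median of the members was 0.09, with 71 genes positive. With median centring it was 0.15, with 77 genes positive. Among the 80 genes above the receptor level the difference ranged from -0.06 to 0.34 (Rps20, 1.26-fold). At an unadjusted limma p under 0.05, 1 of the 81 genes was called, Rpl22, where 3.25% of all transcripts were called (1.27% higher and 1.98% lower in the P1.2 group). That count is below the background. No member passed both that p and a fold change of 1.3, which 2.28% of all transcripts did, none had an adjusted p under 0.05 by limma or by the methods’ t-test (0% of all transcripts did, and the lowest limma value among members was 0.9999, Benjamini-Hochberg over all transcripts), and in none did the diets fail to overlap, against 0.153% of all transcripts. The methods' t-test had an unadjusted p under 0.05 for 3 members, Rpl17, Rpl22 and Rps3a1, where it called 3.65% of all transcripts. The genes are measured on the same arrays and vary together, so the count of positive differences carries no more weight than the arrays do.

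How much one array weighs is seen in the median deviation of the 81 genes from their own means. It was -0.01, -0.38, 0.06, 0.19, 0.33 and 0.22 on the P1.2 arrays 2, 4, 6, 8, 10 and 12, against -0.14, 0.03, -0.20, -0.05, 0.08 and -0.03 on the P0.3 arrays 1, 3, 5, 7, 9 and 11. The P1.2 group thus held both the lowest and the highest arrays and the P0.3 group lay between them. On P1.2 array 4 only 7 of the 81 genes were above their own mean, and on P1.2 array 10 it was 76. Without P1.2 array 4 the median difference between the diets was 0.23, with 78 positive genes and 6 called, among them Rpl22, Rpl35a, Rpl36a, Rps12 and Rps29, where 4.6% of all transcripts were called. Without P1.2 array 10 the median was 0.07, with 64 positive genes and 2 called, Rpl22 and Rpl39l, which lies below the receptor level, where 2.95% of all transcripts were called. P1.2 array 4 also had the lowest mean of the 6 fibroblast markers (9.44, against 9.46 to 11.95 on the other P1.2 arrays and 10.17 to 10.54 on the P0.3 arrays) and of the 6 endothelial markers (8.40, against 8.68 to 9.56 on the other P1.2 arrays and 8.54 to 9.51 on the P0.3 arrays). The fibroblast mean of 9.46 was that of P1.2 array 10, the array with the highest median deviation of the ribosomal protein genes. All 12 of the fibroblast and endothelial markers were above the receptor level, and their part in the result was not tested.

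**Figure D1:**
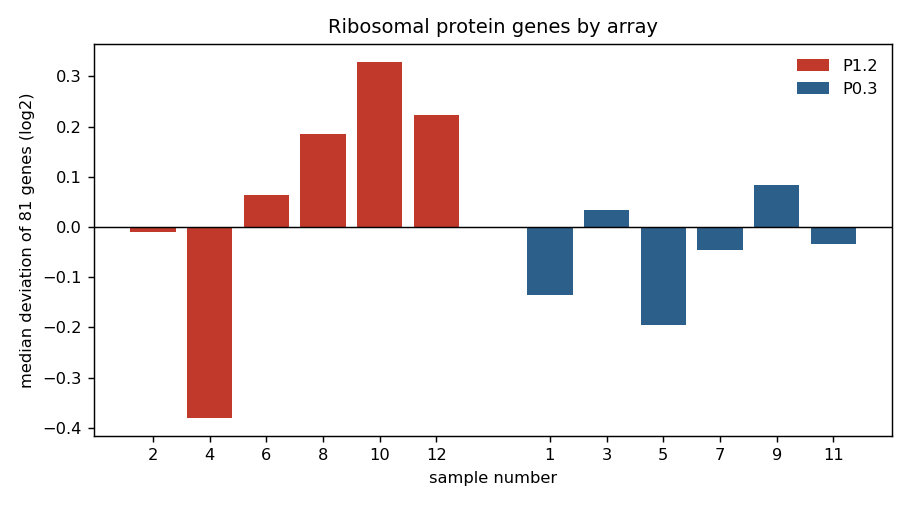
Median deviation of the 81 ribosomal protein genes from their own means (log2) on each array, by sample number, P1.2 arrays in red on the left and P0.3 arrays in blue on the right. The P1.2 bars run from -0.38 (array 4) to 0.33 (array 10) and the P0.3 bars from -0.20 to 0.08.

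Rpl22, an RNA-binding protein of the large subunit, was the one member called by diet. Its log2 signal, by sample number as in all such series of values here, was 13.85, 13.46, 13.84, 13.87, 13.87 and 13.83 on the P1.2 arrays, against 13.46, 13.59, 13.47, 13.39, 13.46 and 13.56 on the P0.3 arrays. Apart from array 4, which stood among the P0.3 arrays, the P1.2 arrays stood above every P0.3 array. The means were 13.79 ± 0.16 in the P1.2 group and 13.49 ± 0.07 in the P0.3 group (SD, n = 6 each). The log2 difference was 0.30 (95% interval 0.04 to 0.56), with limma p = 0.026, adjusted p = 0.9999 and p = 0.013 in a two-sided exact permutation test of this gene alone, where the smallest possible is 0.0022. Rpl22 remained at an unadjusted p under 0.05 without any 1 array (0.0076 to 0.0497).

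The 3 largest positive differences belonged to Rps20, a protein of the small subunit's head, Rpl6 and Rpl36a, both of the large subunit. None of the 3 passed the test. Rps20 was 12.23 ± 0.41 in the P1.2 group and 11.89 ± 0.53 in the P0.3 group (SD, n = 6 each; difference 0.34, 95% interval -0.17 to 0.85). Rpl6 was 15.63 ± 0.22 in the P1.2 group and 15.29 ± 0.34 in the P0.3 group (difference 0.34, interval -0.02 to 0.69). Rpl36a was 11.42 ± 0.40 in the P1.2 group and 11.10 ± 0.34 in the P0.3 group (difference 0.32, interval -0.10 to 0.74). Apart from that of Rpl39l, the negative differences, among them those of Rps3, Rpl11 and Rps28, lay between -0.06 and -0.02. Rpl11, which in human and mouse cells binds the p53 regulator MDM2 when ribosome assembly fails, was 13.24 ± 0.29 in the P1.2 group and 13.29 ± 0.30 in the P0.3 group.

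Several members are used as reference genes or as readouts of the pathway. Rps6, the substrate of the S6 kinases, was 16.38 ± 0.20 in the P1.2 group and 16.38 ± 0.13 in the P0.3 group, with a 95% interval of the difference from -0.28 to 0.29. Rplp0, of the ribosomal stalk, was 10.87 ± 0.25 in the P1.2 group and 10.71 ± 0.27 in the P0.3 group (difference 0.16, interval -0.18 to 0.50). Rpl13a was 16.63 ± 0.23 in the P1.2 group and 16.56 ± 0.24 in the P0.3 group (0.07, -0.25 to 0.39). For 59 of the 81 genes the whole 95% interval lay within a 1.5-fold change in either direction, and for the other 22 it reached beyond, up to 1.80-fold for Rps20.

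Among the 5 paralogs, Rpl3l had a difference of 0.22 (95% interval -0.26 to 0.70), Rps27l of 0.21 (-0.22 to 0.65), Rpl7l1 of 0.22 (-0.17 to 0.60), and Rpl22l1 of 0.10 (-0.23 to 0.43). None passed the test. Rps27l is a target of p53, Rpl39l is best known from testis, and Rpl22 binds and represses the mRNA of Rpl22l1 in mouse cells. Rpl39l lay below the receptor level on every array, with 4.51, 4.19, 4.50, 4.51, 5.05 and 4.45 on the P1.2 arrays against 4.44, 4.56, 4.69, 4.80, 4.98 and 5.35 on the P0.3 arrays. Its difference of -0.27 (-0.64 to 0.10) is therefore not read as a change.

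Whether a paralog moved against its partner was tested on the log2 difference between them on each array. Only the change of that difference between diets is read, because 2 probe sets have no common level. It was 0.16 for Rpl3l against Rpl3 (SE 0.27, exact p = 0.53), -0.20 for Rpl22l1 against Rpl22 (SE 0.12, exact p = 0.12) and 0.15 for Rpl7l1 against Rpl7 (SE 0.37, exact p = 0.69). Adjusted over the 4 pairs computed, the p for Rpl22l1 was 0.23. For the fourth pair, Rpl39l against Rpl39, no value is read, because Rpl39l was below the receptor level on every array.

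Rpl3l was 14.27, 14.00, 14.34, 14.98, 14.78 and 14.80 on the P1.2 arrays, against 13.78, 14.13, 13.89, 14.21, 14.91 and 14.92 on the P0.3 arrays. Rpl3, the protein near the peptidyl transferase centre that RPL3L replaces, was 9.42, 8.34, 9.35, 9.11, 9.49 and 9.97 on the P1.2 arrays, against 9.13, 9.33, 9.24, 9.18, 9.34 and 9.14 on the P0.3 arrays. In both diets the 3 arrays with the higher numbers had the higher Rpl3l signals, while Rpl3 was spread widely only in the P1.2 group (SD 0.54, against 0.09 in the P0.3 group). Across the 12 arrays Pearson's r between them was 0.39 (permutation p = 0.23) and Spearman's rho 0.22 (permutation p = 0.50). After adjustment over the 4 pairs of paralog and partner these p were 0.30 and 0.50. Without the 2 arrays farthest from the median of Rpl3, r was 0.07, so the positive r rests on those arrays. Within the P1.2 group r was 0.60 (exact permutation p = 0.20) and within the P0.3 group it was 0.21 (exact permutation p = 0.65). In samples 7 to 12 rho was -0.60 (exact permutation p = 0.24) and r was 0.07. For samples 1 to 6 rho was 0.77 (exact permutation p = 0.10) and r was 0.39. An inverse relation between the paralogs was thus not detected with these arrays.

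**Figure D2:**
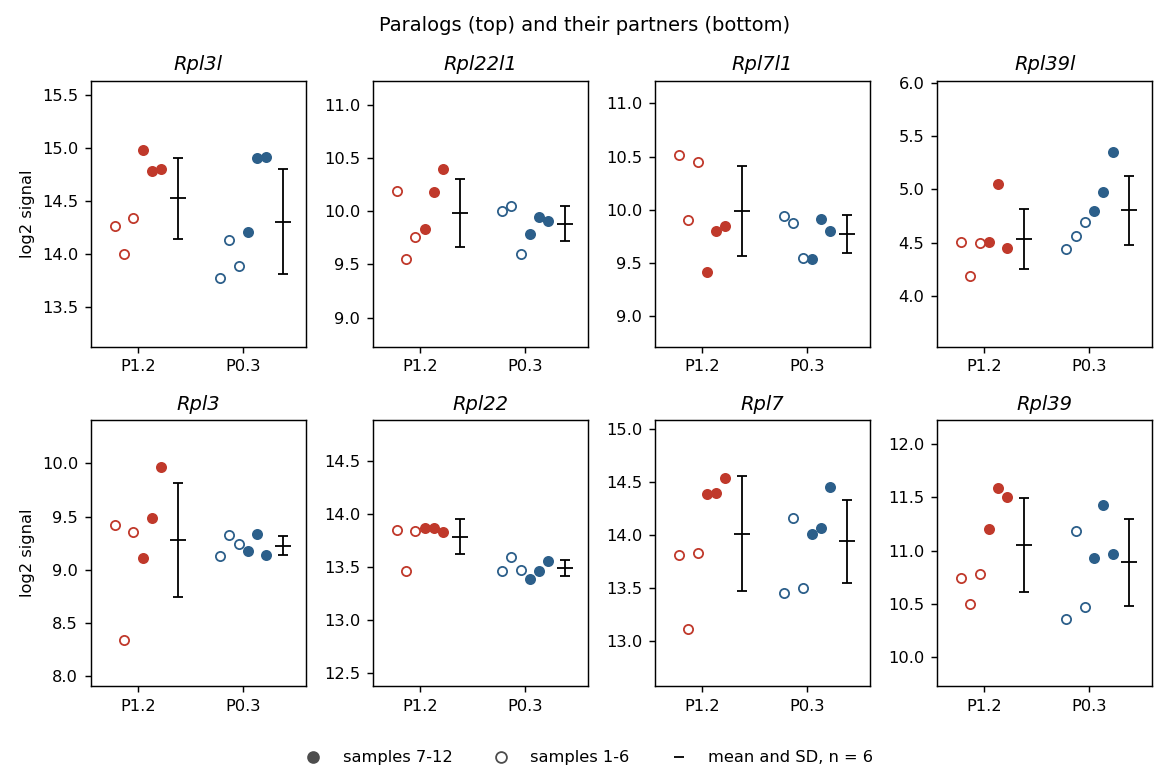
Log2 signal of 4 paralogs (top) and their partners (bottom) on each array, P1.2 left of P0.3, with mean and SD (n = 6) beside the points. Filled points are samples 7 to 12 and open points samples 1 to 6; each panel spans 2.5 log2 units, and only differences within a panel can be read. The P1.2 points of Rpl22 lie above all P0.3 points except that of array 4, and the filled points of Rpl3l lie high in both diets.

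The members differed widely in how much they varied between arrays. The SD within diets ranged from 0.09 (Rpl28) to 0.71 (Rpsa), with a median of 0.30. For 7 genes it was under 0.15, among them Rpl28, Rpl17 and Rps23, a protein of the decoding centre that gave 17.72, 17.45, 17.55, 17.60, 17.72 and 17.67 on the P1.2 arrays and 17.50, 17.61, 17.49, 17.67, 17.62 and 17.38 on the P0.3 arrays. For 5 genes it was over 0.5, among them Rpsa, Rpl24, Rps9 and Rps28. Members moved together: the median correlation between 2 members, after the diet means were taken out, was 0.40 over 3240 pairs, with 76.5% of pairs above 0, where all transcripts had a median of 0.00. The pairs share the same 12 arrays. With the means of diet and sample-number set (samples 7 to 12 and samples 1 to 6) both taken out, the median was 0.42. The correlation was thus no lower within the sets, but it does not measure the size of the variation. In all, 11 members had a negative median r with the others. It was clearly negative for Rpl4 (-0.50), Rpl6 (-0.41) and Rpl21 (-0.39), and for the rest of the 11 it lay between -0.15 and -0.01. Rpl7 (0.69) followed the others most closely.

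Many members also differed by the sample numbers of the labels. What the numbers stand for is not given in the sources used here, and the division into samples 7 to 12 and samples 1 to 6, with 3 mice of each diet in each set, was chosen after the values had been seen. It is therefore a description, and no p is given for single genes. At an unadjusted limma p under 0.05, with the diet in the fit, 40 of the 81 genes (49.4%) differed between the 2 sets, where 14.8% of all transcripts did. Of these, 34 were higher in samples 7 to 12 (7.06% of all transcripts) and 6 lower (7.69%). The median difference over the members was 0.19, against 0.02 over all transcripts, and 61 of the 81 genes differed more by number than by diet (59.7% of all transcripts did). In 8 genes the 2 sets did not overlap, against 2.72% of all transcripts. The genes vary together on the same arrays, so these counts carry no more weight than the arrays do. Leaving out any 1 array gave 28 to 41 genes, and without P1.2 array 4 it was 28 (13.2% of all transcripts) with a median of 0.12.

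The most divided gene was Rpsa, of the small subunit and also known as the laminin receptor. On the P1.2 arrays it was 12.96, 12.69 and 12.98 in samples 8, 10 and 12, against 11.55, 10.97 and 11.89 in samples 2, 4 and 6. The P0.3 arrays showed the same division, with 12.30, 12.74 and 12.67 in samples 7, 9 and 11, against 11.46, 11.94 and 11.49 in samples 1, 3 and 5. The means were 12.72 ± 0.25 in samples 7 to 12 and 11.55 ± 0.35 in samples 1 to 6 (SD, n = 6 each), a difference of 1.17 or 2.25-fold, while the difference between the diets was 0.07 ± 0.34 (SE). Rpl24, of the large subunit near the subunit interface, was 13.53 ± 0.18 in samples 7 to 12 and 12.54 ± 0.29 in samples 1 to 6. Rplp2, an acidic stalk protein with a tract at its start, was 10.61 ± 0.28 in samples 7 to 12 and 9.83 ± 0.19 in samples 1 to 6. Rps28, of the small subunit, was 10.23 ± 0.30 in samples 7 to 12 and 9.48 ± 0.33 in samples 1 to 6. The sets of Rpl24 and Rplp2 did not overlap, while those of Rps28 did. Rpl3l was 14.77 ± 0.28 in samples 7 to 12 and 14.07 ± 0.22 in samples 1 to 6. Rps27a, which encodes a fusion of ubiquitin with a small subunit protein, was 13.92 ± 0.16 in samples 7 to 12 and 13.35 ± 0.13 in samples 1 to 6.

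The 6 genes that were lower in samples 7 to 12 were Rpl10a, Rpl15, Rpl18, Rpl21, Rpl4 and Rps3, 5 of the large and 1 of the small subunit. Rpl21 was 16.04 ± 0.24 in samples 7 to 12 and 16.53 ± 0.10 in samples 1 to 6, and the sets did not overlap. Rpl18 was 13.60 ± 0.25 in samples 7 to 12 and 14.08 ± 0.32 in samples 1 to 6. Rpl4 was 16.87 ± 0.26 in samples 7 to 12 and 17.20 ± 0.12 in samples 1 to 6. All 6 were also among the 11 members with a negative median r with the others. This is no separate observation, since only the diet means were taken out there and the difference by sample number remained.

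**Figure D3:**
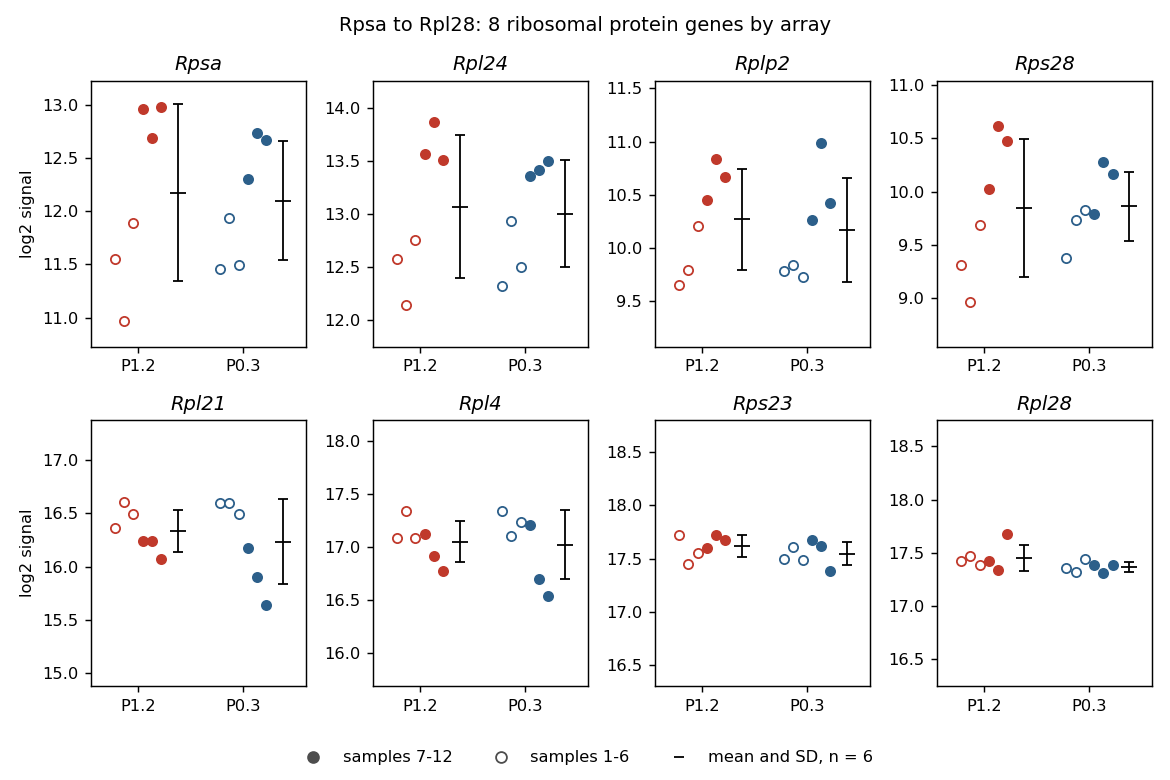
Log2 signal of 8 members on each array, P1.2 left of P0.3, with mean and SD (n = 6). Filled points are samples 7 to 12 and open points samples 1 to 6; each panel spans 2.5 log2 units. In Rpsa and Rpl24 the filled points lie above the open ones in both diets, in Rpl21 below them, and Rps23 and Rpl28 vary little.

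Within the P1.2 arrays alone, 26 of the 81 genes (32.1%) differed between the 2 sets, where 10.1% of all transcripts did, with a median of 0.33. Within the P0.3 arrays alone it was 10 genes (12.3%), where 11.8% of all transcripts differed, with a median of 0.09, so that the share of members was near the background there. The sign was the same in both diets for 59 of the 81 genes (56.6% of all transcripts). The 6 endothelial markers moved with the numbers as well: 5 of the 6 were called, and their mean was 9.29 (8.85 to 9.56) in samples 7 to 12 and 8.74 (8.40 to 9.07) in samples 1 to 6. The mean of the 10 slow fibre markers was 11.09 (8.47 to 13.10) in samples 7 to 12 and 9.94 (8.81 to 11.70) in samples 1 to 6, and with it as a covariate 30 members were called, where 13.4% of all transcripts were. The part of the endothelial markers in the result was not tested.

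The diet difference was also taken within each set. In samples 7 to 12 its median was 0.23, with 73 of the 81 genes positive and 7 called, all higher in the P1.2 group and among them Rpl27, Rpl35a, Rps12, Rps14, Rps20 and Rps27l, where 5.63% of all transcripts were called. In samples 1 to 6, which hold P1.2 array 4, its median was 0.00, with 41 of the 81 genes positive and 0 called, where 3.57% of all transcripts were called by limma. The test of the difference between the sets, the interaction of diet and set, had an unadjusted p under 0.05 for 3 members (3.70%), among them Rpl27a and Rps27l, where 5.81% of all transcripts had one. Rps27l was 11.78, 11.76 and 12.20 on the P1.2 arrays against 11.25, 11.20 and 11.47 on the P0.3 arrays in samples 7 to 12, and 10.94, 11.01 and 11.32 on the P1.2 arrays against 10.97, 11.62 and 11.22 on the P0.3 arrays in samples 1 to 6. Rps27l was picked from these same values, and each set holds 3 arrays per diet. Its pattern is therefore not read as an effect of diet particular to 1 set. With the set as a block in the fit, 2 members were called by diet, Rpl22 and Rpl6, where 3.8% of all transcripts were.

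**Figure D4:**
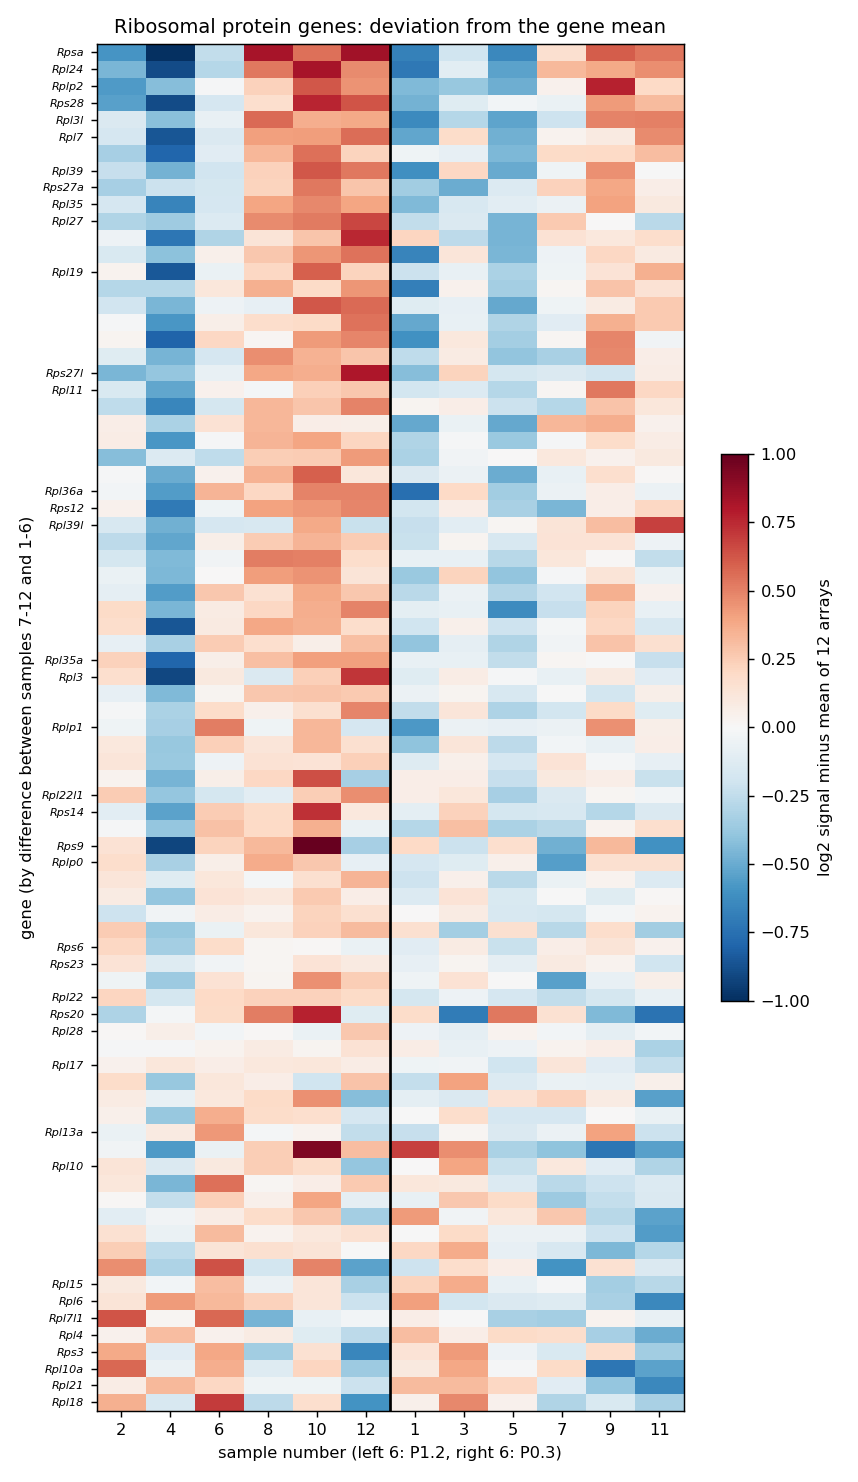
Deviation of each of the 81 genes from its mean over 12 arrays (log2, colour scale capped at -1 and 1), P1.2 arrays on the left and P0.3 arrays on the right, each by sample number. Some genes are labelled. Genes are ordered by the difference between samples 7 to 12 and samples 1 to 6, from Rpsa (1.17) to Rpl18 (-0.49); on P1.2 array 4, 7 of the 81 genes are red.

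**Figure D5:**
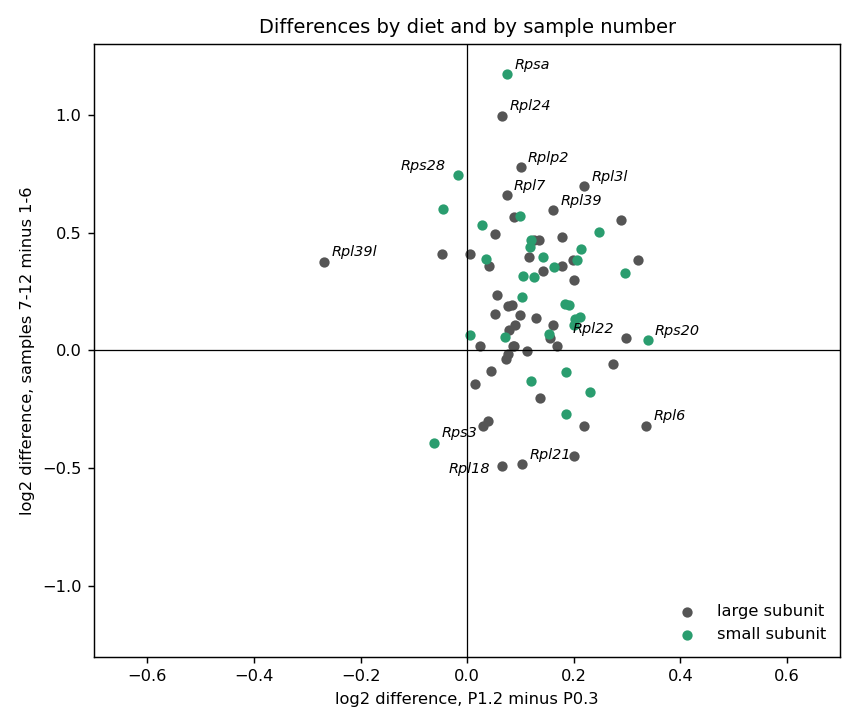
Log2 difference between samples 7 to 12 and samples 1 to 6 (vertical) against the log2 difference P1.2 minus P0.3 (horizontal) for the 81 genes, large subunit in grey and small subunit in green, paralogs counted with their subunit. The horizontal range is -0.27 to 0.34 and the vertical range -0.49 to 1.17; 76 genes lie right of 0.

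For genes with a pyrimidine tract at the RefSeq start, values are given beside those without one. The median diet difference was 0.12 for the 12 genes with one and 0.11 for the 49 without, and 6 of the 12 and 27 of the 49 differed by sample number, where 14.8% of all transcripts did.

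The genes that make, assemble or regulate ribosomes were set beside the family. Of 7 further ribosomal proteins on the array, which include the fusion gene Fau and Gnb2l1 (the ribosomal scaffold RACK1), 0 were called by diet in limma, of 36 translation factors 0, of 16 genes of RNA polymerase I transcription 2 were higher, of 50 ribosome assembly factors 0, and of 30 regulators of mTORC1 and TOP mRNAs 1 was higher. None was called lower, where 1.27% of all transcripts were called higher and 1.98% lower. The methods' t-test called 1 gene of RNA polymerase I transcription, Polr1e, and 1 assembly factor, Pes1, both higher in the P1.2 group, and 0 of the other lists, where it called 3.65% of all transcripts. The median differences of these lists were 0.03, 0.05, 0.08, 0.02 and -0.03. By sample number, where 14.8% of all transcripts were called (7.06% higher and 7.69% lower in samples 7 to 12), the lists differed in direction. Of the further ribosomal proteins 28.6% were called, 2 higher and 0 lower in samples 7 to 12. Of the translation factors it was 41.7%, 8 higher and 7 lower, and of the genes of RNA polymerase I transcription 18.8%, 1 higher and 2 lower. Of the assembly factors it was 36.0%, 5 higher and 13 lower, and of the regulators of mTORC1 and TOP mRNAs 33.3%, 4 higher and 6 lower.

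Polr1e, a subunit of RNA polymerase I, was 7.50, 7.57, 7.82, 7.48, 7.27 and 7.71 on the P1.2 arrays, against 7.31, 7.42, 7.24, 6.64, 6.31 and 6.84 on the P0.3 arrays. The 3 lowest values were those of P0.3 arrays 7, 9 and 11, and the difference was 0.60 (95% interval 0.20 to 0.99, limma p = 0.0056, exact p = 0.0065, adjusted p = 0.9999). Myc, the transcription factor that drives ribosome production, was 8.25, 7.42, 8.72, 8.47, 8.45 and 8.56 on the P1.2 arrays, against 8.29, 7.52, 8.14, 8.15, 7.11 and 7.47 on the P0.3 arrays. The diets overlapped through P1.2 arrays 2 and 4. Its difference was 0.53 (0.03 to 1.03, limma p = 0.040, exact p = 0.069). Sesn1, an inhibitor of mTORC1 when leucine is scarce, was 9.57, 8.73, 10.35, 9.34, 8.35 and 9.77 on the P1.2 arrays, against 9.02, 8.73, 8.50, 8.20, 8.78 and 8.81 on the P0.3 arrays, a difference of 0.67 (0.10 to 1.25, limma p = 0.024, exact p = 0.058). Polr1e kept an unadjusted p under 0.05 without any 1 array, while Myc and Sesn1 did not. None of the 3 had an adjusted p below 0.9999. The paper already lists Polr1e among its up-regulated transcripts from these same arrays, so it is no independent result.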

How the data were processed

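Total RNA of 12 gastrocnemius pieces was hybridised to Affymetrix Clariom S mouse arrays, and the authors deposited log2 signals per transcript made by GCCN-SST-RMA (Affymetrix Expression Console 1.4, per the submitters' processing notes); a second deposited table holds the same log2 values rounded. These log2 signals were used as they were. The fold change, the p-value and the other comparison columns of the deposited table were not used. The genome build of the array annotation is not given in the sources used here. No count lies behind an array value, so the 6 arrays per diet limit the precision. The p-values rest on the spread between these samples, and limma draws the spread of each gene toward that of all transcripts.

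Each transcript was fitted with limma 3.58.1 (lmFit and eBayes, R 4.3.3), P1.2 minus P0.3, with Benjamini-Hochberg adjustment over all 22206 transcripts. Exact permutation tests were two-sided over every split of the 12 arrays into 6 and 6, and correlations used 100000 permutations. The steps were tested on simulated data. Members and lists were chosen with earlier results of these data known. Named were the paralogs and partners, members called or not overlapping, and the 3 most positive and 3 most negative differences. Also named were the 3 largest and 3 smallest SDs and genes at the highest signal of the arrays or at the receptor level. Rps6, Rplp0, Rpl13a and up to 3 called genes per list were named too. Other genes were named after their values were seen. Alternatives were the methods' t-test, quantile normalization, median centring, the rounded table, another prior, a slow fibre covariate, the mean of a gene's rows, a filter on dim transcripts, and leaving out each array. The sample-number fits were added after the data were seen. Rps27 had no row of that symbol here, so its pair with Rps27l was not tested. Some single-gene results are not reported here. Other steps used scipy 1.17.1 and numpy 2.4.6 in Python 3.11.15.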

Additional observations from a re-analysis of the deposited data

Results flagged for a closer look

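In 2 of 52 groups of 6 arrays tested over the named genes, 1 array stood far from the others, and both times it was the lowest P1.2 value, that of array 4. Chance gives about 1 group in 20. Rpl22 was 13.46 on that array, and the nearest other P1.2 value was 13.83. Myc was 7.42 there, and the nearest other P1.2 value was 8.25. Over all 81 members, 10 of 162 groups held such an array.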

How the results depend on the processing

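No paired analysis was possible because the P1.2 and P0.3 groups share no sample number. Of the 664 values under an alternative, 602 kept their direction and their side of the threshold or, for counts, stayed close. The count of members called by diet, 1, was 3 with the methods' t-test (3.65% of all transcripts), 2 with the slow fibre covariate (3.92%), 2 with the sample-number set as a block (3.8%), 7 in samples 7 to 12 alone (5.63%) and 0 in samples 1 to 6 alone (3.57%). It was 1 to 6 when arrays were left out (2.86% to 4.6% of all transcripts). The median difference was 0.23 in samples 7 to 12 alone and 0.00 in samples 1 to 6 alone. Samples 1 to 6 hold 3 arrays per diet, among them P1.2 array 4 with its median deviation of -0.38. The 0.00 therefore does not show that a shift was absent there. When arrays were left out, the median difference ran from 0.07 (without P1.2 array 10) to 0.23 (without P1.2 array 4). The count by sample number, 40, was 26 on the P1.2 arrays (10.1%) and 10 on the P0.3 arrays (11.8%).

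When 1 array was left out, small diet differences changed sign. Their ranges were -0.109 to 0.053 for Rpl11, -0.006 to 0.162 for Rpl13a, -0.094 to 0.252 for Rpl24, -0.083 to 0.243 for Rpl3, -0.030 to 0.252 for Rpl7, -0.147 to 0.061 for Rps3, -0.039 to 0.074 for Rps6, -0.012 to 0.407 for Rps9 and -0.087 to 0.316 for Rpsa. For the pairs, the ranges were -0.27 to -0.14 for Rpl22l1 against Rpl22 (exact p 0.030 to 0.23) and -0.016 to 0.336 for Rpl7l1 against Rpl7. The cause was not tested. For Rpl39l against Rpl39 the values ran from -0.54 to -0.32 and are not read as a change, since Rpl39l was below the receptor level throughout. The pair of Rps27l and Rps27 was not run.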
